A study of Mus musculus with 72 samples.

Results

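The genes described here are Dcx, Sox11, Sox4, Neurod1, Eomes, Insm1, Tubb3, Stmn2 and Igfbpl1, 9 genes known from neuroblasts and immature neurons. They were chosen for that known role, with earlier results of these data known. Every probe set that the array carries for them was taken, which gave 29 of 45101 probe sets (9 of 18194 genes with a probe set of their own). Sox4 had 8 probe sets, Sox11 6 and Dcx 4. Neurod1, Eomes, Insm1, Stmn2 and Igfbpl1 had 2 each, and Tubb3 had 1. Total RNA was measured in the hippocampus, cerebellum and cerebral cortex of Ts1Cje mice, and of their disomic littermates, at postnatal days P1, P15, P30 and P84, with 3 mice in each of 24 groups and 1 array per mouse and region. Ts1Cje mice carry an extra copy of a segment of mouse chromosome 16 and are a partial trisomy model of Down syndrome. They also lack 1 copy of a few genes at the end of chromosome 12, where the segment was joined, and none of the 9 genes is among those the study names as deleted there. They came from matings of Ts1Cje males with C57BL/6 females, so both genotypes share that background. None of the 9 genes lies on chromosome 16. All mice were labelled female. On 69 of 72 arrays the Y-linked gene Eif2s3y was above the upper quartile of the array and Xist below it, and the reverse was seen on the other 3, which were Ts1Cje P1 replicate 3 in each region.

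During brain development a dividing progenitor gives rise to a neuroblast, which leaves the cell cycle, migrates and extends processes before it matures. Most neurons of the cerebral cortex arise before birth. In the cerebellum, granule neurons are still being made in the outer layer during the first weeks after birth, and in the hippocampus the dentate gyrus goes on adding neurons into adult life. Sox4 and Sox11 are transcription factors of the SoxC group that switch on genes of newborn neurons, Insm1 is a zinc finger factor of progenitors as they commit to a neuronal fate, and Eomes, also called Tbr2, is a T-box factor of intermediate progenitors of the cortex and hippocampus and of unipolar brush cells of the cerebellum. Neurod1 is a basic helix-loop-helix factor required for granule neurons of the cerebellum and dentate gyrus. Dcx encodes doublecortin, a microtubule-binding protein of migrating neurons, Tubb3 encodes a neuronal beta-tubulin, and Stmn2 encodes a tubulin-binding protein of growth cones. Igfbpl1 encodes a secreted protein related to the insulin-like growth factor binding proteins.

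Transcription factors of the Neurod1 class bind DNA at an E-box, which reads CANNTG with any base at N. Upstream sequences of 250 bases (RefSeq, assembly GRCm38.p6) were at hand for 6 of the 9 genes, and 3 of these held an E-box. They are shown because they belong to 3 of the transcription factors whose age course is described next, and because Neurod1, a factor that binds this motif, followed another course than Sox4 and Sox11. All 4 windows read 5′ to 3′ on the minus strand, with the E-box in capitals. They lie at chr12:27342903-27342948 and chr12:27342725-27342770 for Sox11, chr13:28953885-28953930 for Sox4 and chr2:79456853-79456886 for Neurod1.
Sox11 at 210 bases before the start: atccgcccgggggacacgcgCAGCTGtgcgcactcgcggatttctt
Sox11 at 32 bases before the start: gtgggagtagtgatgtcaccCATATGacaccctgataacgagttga
Sox4 at 211 bases before the start: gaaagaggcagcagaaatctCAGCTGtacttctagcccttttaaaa
Neurod1 at 242 bases before the start: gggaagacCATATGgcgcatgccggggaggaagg
CAGCTG and CATATG read the same on both strands and both are cases of the E-box. The E-box was found in 66% of 27025 such upstream sequences, CAGCTG in 12.8% and CATATG in 3.47%, so the matches describe these sequences and no more. The upstream sequences of Dcx, Eomes and Tubb3 held no CANNTG in this window. Insm1, Stmn2 and Igfbpl1 are named only.

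Values are gcRMA log2 values, so a difference of 1 is a doubling, and array medians lay between 3.20 and 3.37. Levels below this are not shown to be above background, and differences from them may be understated. On an axis that runs from 0 for the hippocampus to 1 for the cerebellum, the disomic P15 replicate 3 array labelled cerebellum lay at 0.0118 and that labelled hippocampus at 0.988, while the other P15 arrays lay at 0.00820 to 0.0524 (hippocampus) and 0.947 to 0.997 (cerebellum). These 2 arrays go against their labels and were left out, which leaves 70 arrays and 2 disomic P15 arrays in each of these regions. On 3 disomic replicate 3 arrays the upper quartile was 4.97 to 5.51, against 5.65 to 5.93 on the other arrays. Unless another probe set is named, the values of a gene come from its probe set with the highest mean over the arrays. Differences were tested with limma over all 45101 probe sets. A difference was called where the size of its moderated t reached 4 and its p, adjusted over all probe sets after Benjamini and Hochberg, did not exceed 0.05. Bulk tissue was measured throughout, so fewer cells of a type and less RNA per cell cannot be told apart.

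Most of the 29 probe sets were lower at P84 than at P1, and 22 of them fell in all 3 regions. At P15 against P1, 24 of 29 probe sets were lower in the hippocampus (10.2% of all probe sets were called lower in this comparison), 21 in the cerebellum (11.4%) and 25 in the cerebral cortex (13.7%). Both Neurod1 probe sets were higher in the cerebellum at this step (11.8% of all were called higher). At P30 against P15 a further 16 were lower in the hippocampus (0.949%), 21 in the cerebellum (2.7%) and 5 in the cerebral cortex (1.2%). From P30 to P84 little was left to fall, with 3 lower in the hippocampus (0.359%). In limma none was called in the cerebellum (0.676%), where 9 had an unadjusted p under 0.05, nor in the cerebral cortex (0.337%), where 7 did. In P84 against P1, 26 probe sets were lower in the hippocampus (13.8%), 22 in the cerebellum (14.5%) and 25 in the cerebral cortex (15.8%), and 1 Neurod1 probe set was higher in the cerebellum (14.3%). The median difference of the 29 probe sets at P84 against P1 was -4.99 in the hippocampus, -4.82 in the cerebellum and -4.42 in the cerebral cortex, beside medians of -0.00110, -0.0122 and 0.0170 over all probe sets. Of the Sox4 probe sets, 1443778_at, 1455867_at and 1458332_x_at were not called in P84 against P1 in any region, while the other 5 fell in all 3. The members were picked as genes of young neurons, with earlier results of these data known. Neither their fall after birth nor its timing in the regions is thus an independent result.

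**Figure D1:**
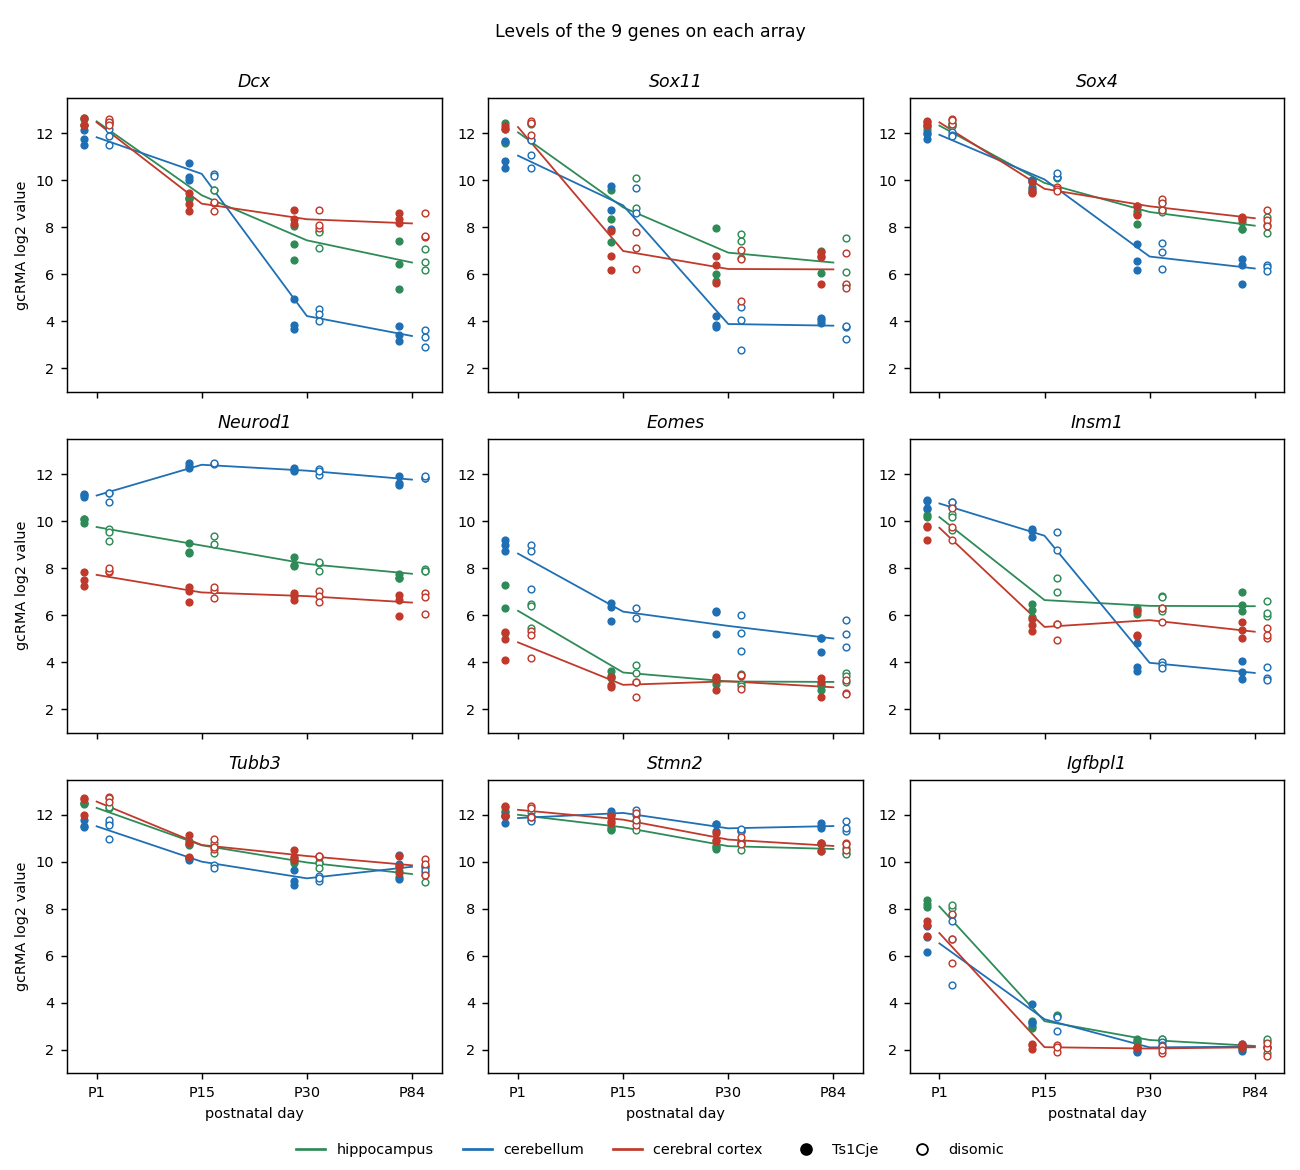
Each panel plots 1 gene, with the postnatal day on the x axis and the gcRMA log2 value on the y axis. Filled points are Ts1Cje arrays, open points are disomic arrays, lines join the means of both genotypes in each region, and the 2 arrays that go against their labels are not drawn. Dcx, Sox11 and Insm1 stay high in the cerebellum at P15 and are at their lowest there at P30 and P84, whereas Neurod1 is higher in the cerebellum at P15 than at P1.

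Most of the fall of Sox11 came before P15 in the cerebral cortex and after P15 in the cerebellum. In the cerebral cortex its 6 arrays spanned 11.94 to 12.52 at P1 (median 12.25), 6.17 to 7.85 at P15 (median 6.95), 4.88 to 7.03 at P30 (median 6.51) and 5.43 to 6.95 at P84 (median 6.17). P1 arrays lay clear of all later ones, and the 3 later ages overlapped. The fall to P15 in the cerebral cortex was 38.7-fold (log2 difference -5.27 ± 0.41, SE, adjusted p = 4.39e-16). In the cerebellum the range was 10.51 to 11.69 at P1, 7.93 to 9.74 at P15, 2.79 to 4.62 at P30 and 3.23 to 4.15 at P84. There the larger step came second, with a log2 difference of -5.08 ± 0.43 at P30 against P15 (33.8-fold, adjusted p = 2.39e-13) after -2.08 ± 0.43 at P15 against P1 (adjusted p = 7.27e-05). Hippocampal levels spread more widely at P15, between 7.36 and 10.11, and the steps there were -3.09 ± 0.43 and -2.03 ± 0.43 (adjusted p = 4.22e-08 and 0.00193). The cerebellar step to P15 missed the t threshold without Ts1Cje replicate 3 (-1.92) or disomic replicate 2 (-1.83), and the hippocampal step to P30 missed it without Ts1Cje replicate 2 (-1.91) or disomic replicate 1 (-1.82). All 6 Sox11 probe sets were lower at P84 than at P1, with log2 differences of -5.63 to -4.99 in the hippocampus, -7.23 to -6.02 in the cerebellum and -6.27 to -6.00 in the cerebral cortex.

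Sox4, the other SoxC gene, was lower at P84 in the cerebellum than in the other regions at its leading probe set. At P84 the hippocampus held 7.76 to 8.42, the cerebellum 5.58 to 6.66 and the cerebral cortex 8.05 to 8.73, so the cerebellum did not overlap with either of the others. The cerebellum was lower than the cerebral cortex by 2.14 on the log2 scale (log2 difference -2.14 ± 0.15, adjusted p = 5.18e-17), and the hippocampus was higher than the cerebellum by 1.82 ± 0.15 (adjusted p = 1.78e-14). At P1 all arrays of the 3 regions lay between 11.75 and 12.62. Steps from P1 to P15 were -2.40 ± 0.16 in the hippocampus, -1.87 ± 0.16 in the cerebellum and -2.83 ± 0.15 in the cerebral cortex (adjusted p = 8.39e-18, 5.00e-14 and 8.95e-22). Steps from P15 to P30 were -1.27 ± 0.16, -3.31 ± 0.16 and -0.74 ± 0.15 in the same order of regions (adjusted p = 2.25e-07, 5.07e-22 and 0.00110). The last of these missed the t threshold without disomic replicate 2 (-0.68). Not all Sox4 probe sets ran this way. At P84, 1419155_a_at held 3.37 to 3.91 in the hippocampus, 3.20 to 3.63 in the cerebellum and 3.50 to 3.71 in the cerebral cortex, which overlapped. Its cerebellar means at P1, P15 and P30 were 8.29, 5.06 and 3.42, and those of 1419156_at were 9.29, 5.57 and 3.20. For both, the larger cerebellar step thus came before P15, with P30 near the array medians.

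Insm1 also fell mainly after P15 in the cerebellum, and before P15 elsewhere. Cerebellar arrays held 10.56 to 10.88 at P1, 8.79 to 9.67 at P15, 3.60 to 4.80 at P30 and 3.22 to 4.03 at P84. All 5 arrays used at P15 were thus at least 8.79, and none of the 12 later ones was above 4.80. The step to P30 was 41.4-fold (log2 difference -5.37 ± 0.22, adjusted p = 2.31e-25). In the hippocampus Insm1 held 5.94 to 7.56 at P15 and 9.61 to 10.51 at P1 (-3.42 ± 0.22, adjusted p = 5.87e-19), and in the cerebral cortex 4.96 to 5.83 at P15 and 9.20 to 10.55 at P1 (-4.22 ± 0.21, adjusted p = 8.55e-24). After P15 neither of these regions had a called step (adjusted p of at least 0.586). At P84 Insm1 was highest in the hippocampus (6.38 ± 0.38, SD, n = 6), against 3.54 ± 0.33 in the cerebellum and 5.29 ± 0.28 in the cerebral cortex.

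Neurod1 went its own way. In the cerebellum its arrays held 10.83 to 11.21 at P1, 12.25 to 12.48 at P15, 11.98 to 12.25 at P30 and 11.52 to 11.90 at P84, and every later array was above every P1 array. The rise to P15 was 1.32 ± 0.14 (log2, adjusted p = 9.95e-12), and P84 stayed 0.68 ± 0.13 above P1 (adjusted p = 1.44e-05). In the hippocampus Neurod1 held 9.16 to 10.10 at P1, 8.66 to 9.38 at P15, 7.88 to 8.46 at P30 and 7.56 to 7.96 at P84, a fall of 1.99 on the log2 scale in P84 against P1 (SE 0.13, 3.97-fold, adjusted p = 6.61e-19). In the cerebral cortex it held 5.95 to 6.94 at P84 and 7.24 to 7.99 at P1 (-1.18 ± 0.13, adjusted p = 3.51e-11). The second probe set, 1426413_at, had a difference of -0.60 in the cerebral cortex and was not called there. With the 2 exchanged arrays kept as labelled, the cerebellar rise to P15 was 0.80 (adjusted p = 0.0477) and the hippocampal step to P15 was -0.18 (adjusted p = 0.751), against -0.75 (adjusted p = 1.16e-05) without them. Neurod1 read 9.36 on the exchanged array labelled cerebellum and 12.58 on that labelled hippocampus. In that setting the calls of P84 against P1 in the cerebellum and cerebral cortex were also lost (adjusted p = 0.0911 and 0.00243), with the values themselves the same. Without disomic replicate 1 the hippocampal step to P15 was -0.60 and missed the t threshold, as did the step to P30 without disomic replicate 2 (-0.67, against -0.82).

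After P1, Eomes was well above the array median only in the cerebellum. It held 7.11 to 9.18 there at P1, 5.73 to 6.49 at P15, 4.49 to 6.16 at P30 and 4.41 to 5.77 at P84, so P1 stood apart and the later ages overlapped. The disomic replicate 3 array, 1 of the 3 dim arrays, gave the 7.11. In the hippocampus Eomes held 3.32 to 3.89 at P15 and 5.22 to 7.28 at P1, and in the cerebral cortex 2.51 to 3.39 at P15 and 4.10 to 5.32 at P1. Falls to P15 were -2.60 ± 0.29 in the hippocampus, -2.48 ± 0.29 in the cerebellum and -1.81 ± 0.28 in the cerebral cortex (adjusted p = 1.76e-10, 5.09e-10 and 2.57e-07). No later step was called, and at P30 and P84 the medians of the hippocampus and cerebral cortex, between 2.92 and 3.31, were within or below the range of the array medians.

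Dcx, the first of the cytoskeletal genes, ended at a different level in each region at its leading probe set. Its P84 arrays held 5.37 to 7.39 in the hippocampus, 2.89 to 3.81 in the cerebellum and 7.56 to 8.62 in the cerebral cortex, with no overlap between the 3 regions. At P1 the same regions held 12.35 to 12.64, 11.50 to 12.19 and 12.34 to 12.66. The cerebellar loss was concentrated in 1 step, with 3.65 to 4.96 at P30 and 10.02 to 10.72 at P15 (-6.04 ± 0.25, 65.9-fold, adjusted p = 3.35e-25). Hippocampal Dcx fell at each step, with log2 differences of -3.11 ± 0.25, -1.95 ± 0.25 and -0.94 ± 0.23 (adjusted p = 2.66e-15, 1.70e-07 and 0.0462). The last of these met the criteria only narrowly. It missed them without Ts1Cje replicate 2 or 3 (-0.87 and -0.96), without disomic replicate 1, 2 or 3 (-1.03 to -0.80) and without the 3 dim arrays (-0.85). It also had an adjusted p over 0.05, at the same difference, with the exchanged arrays as labelled (0.0722), without the 3 arrays with Xist above Eif2s3y (0.0605) and with 1 fit per region (0.227). Probe set 1418139_at had the same last step at -1.07 (adjusted p = 2.52e-04). In the cerebral cortex Dcx fell by 3.46 on the log2 scale to P15 (SE 0.23, 11.0-fold, adjusted p = 3.73e-18), and neither later step was called (adjusted p = 0.113 and 0.979). Regional ranges at P84 partly overlapped for 2 other probe sets, given as hippocampus, cerebellum and cerebral cortex. Probe set 1418140_at held 2.14 to 2.60, 2.20 to 2.43 and 2.46 to 2.87. Probe set 1448974_at held 3.07 to 3.22, 2.41 to 3.04 and 2.68 to 3.90.

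**Figure D2:**
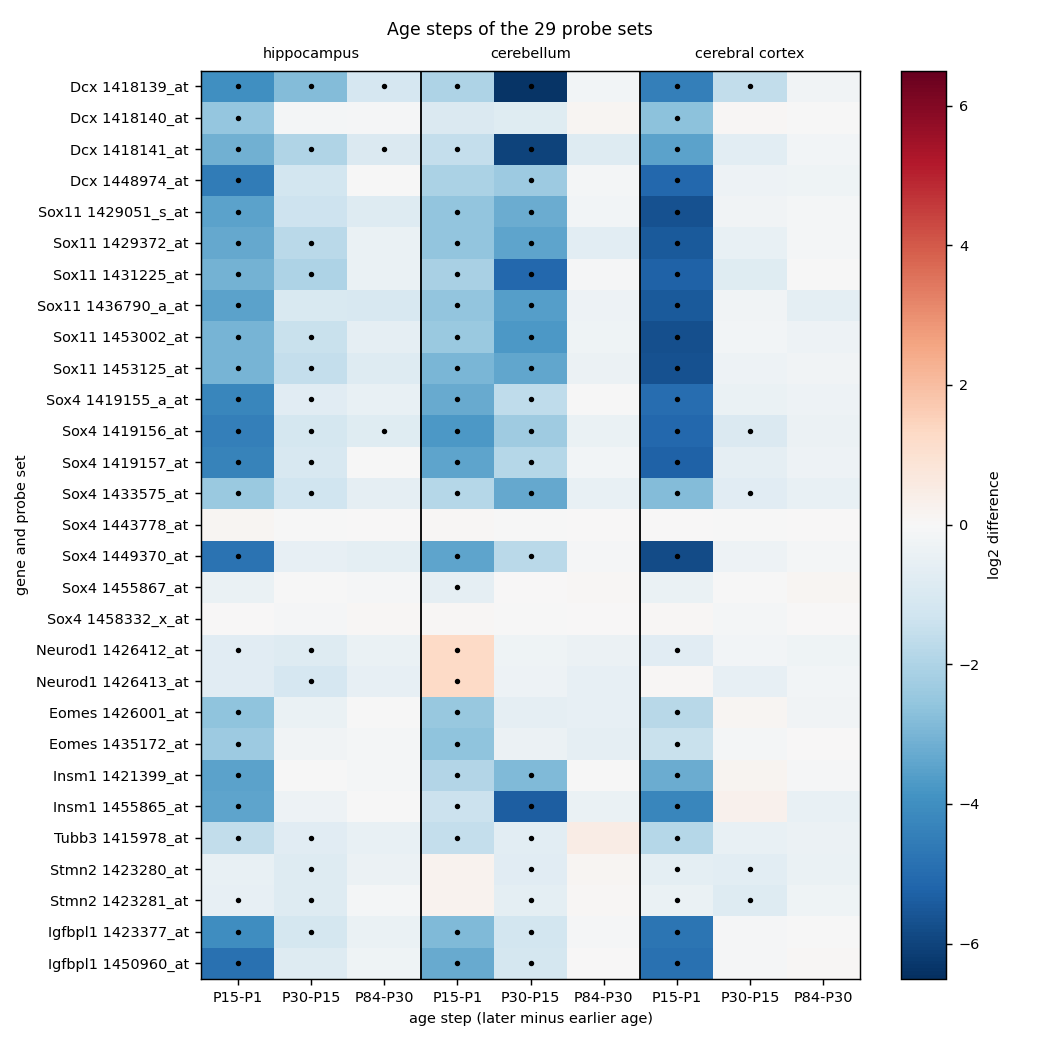
Rows are the 29 probe sets, columns are the age steps in each region, and the colour gives the log2 difference of the later minus the earlier age, from blue (lower) to red (higher). Black dots mark called steps. The first step carries most of the blue in the cerebral cortex, while in the cerebellum the leading probe sets of Dcx, Sox11 and Insm1 are darker at P30 minus P15 than at P15 minus P1, and Neurod1 is red at P15 minus P1 there.

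Tubb3 and Stmn2 had smaller differences with age. Tubb3 held 9.15 to 9.80 in the hippocampus, 9.29 to 10.31 in the cerebellum and 9.44 to 10.26 in the cerebral cortex at P84. At P1 it had held 11.64 to 12.52, 10.98 to 11.79 and 11.98 to 12.76 in the same regions, so that P84 and P1 did not overlap in any of them. Differences of P84 minus P1 were -2.81 ± 0.16, -1.72 ± 0.16 and -2.71 ± 0.16 (adjusted p = 1.34e-21, 7.71e-14 and 4.51e-21). Stmn2 in the cerebellum held 11.67 to 11.98 at P1, 11.99 to 12.20 at P15, 11.32 to 11.62 at P30 and 11.31 to 11.76 at P84. Its P84 minus P1 difference there, -0.34 ± 0.10, did not meet the t threshold (adjusted p = 0.00384). In the hippocampus and cerebral cortex Stmn2 fell by 1.45 and 1.54 on the log2 scale (SE 0.10 each, adjusted p = 4.72e-18 and 4.25e-19). Between P15 and P30 the step was -0.82 ± 0.11 in the hippocampus and -0.85 ± 0.10 in the cerebral cortex (adjusted p = 2.19e-07 and 1.36e-08).

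Igfbpl1 was near the floor of the values in every region from P15 on. At P15 it held 2.91 to 3.50 in the hippocampus, 2.83 to 3.96 in the cerebellum and 1.89 to 2.24 in the cerebral cortex, where the P84 range was 1.73 to 2.31. At P1 the ranges were 7.73 to 8.38, 4.76 to 7.47 and 5.68 to 7.78 in the same order of regions, all above the later values. Falls to P15 were -4.84 ± 0.25, -3.26 ± 0.25 and -4.85 ± 0.24 (adjusted p = 3.26e-22, 7.47e-16 and 1.42e-23). A further cerebellar step of -1.16 was called at P30 against P15 (adjusted p = 8.91e-04). It missed the t threshold without Ts1Cje replicate 1 or 2 or disomic replicate 2 (-1.22 to -0.99) and with 1 fit per region. At P15 the hippocampus and cerebellum were called higher than the cerebral cortex, by 1.15 and 1.16. Both calls were lost without Ts1Cje replicate 1 or 2, among others. The cerebellar P1 minimum of 4.76 came from the dim disomic replicate 3 array. The other Igfbpl1 probe set had P84 minus P1 differences of -5.60, -4.13 and -4.86, against -5.93, -4.39 and -4.86 for the first.

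The timing can be put as the share of the P1 to P84 difference that had been passed by P15. Over the 22 probe sets that fell in all 3 regions, which leaves out Neurod1, Stmn2 and the 3 low Sox4 probe sets, the median share was 70.8% in the hippocampus (50.7% to 95.7%), 44.6% in the cerebellum (18.5% to 89.3%) and 90.5% in the cerebral cortex (68.2% to 103%). By P30 the medians were 91.6%, 96.6% and 96.0%. For Dcx the shares at P15 were 51.8%, 18.5% and 80.5%, and for Insm1 they were 90.3%, 19.5% and 95.4%, again with the hippocampus first and the cerebral cortex last. These shares are descriptions with no test, and a share above 100% means that P15 lay below P84. The 22 include all 6 Sox11 probe sets and every Sox4 probe set but the 3 low ones, so these genes weigh most in the medians. Where values neared the floor by P15, as for Igfbpl1 in the cerebral cortex (99.95%), the share may be overstated.

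**Figure D3:**
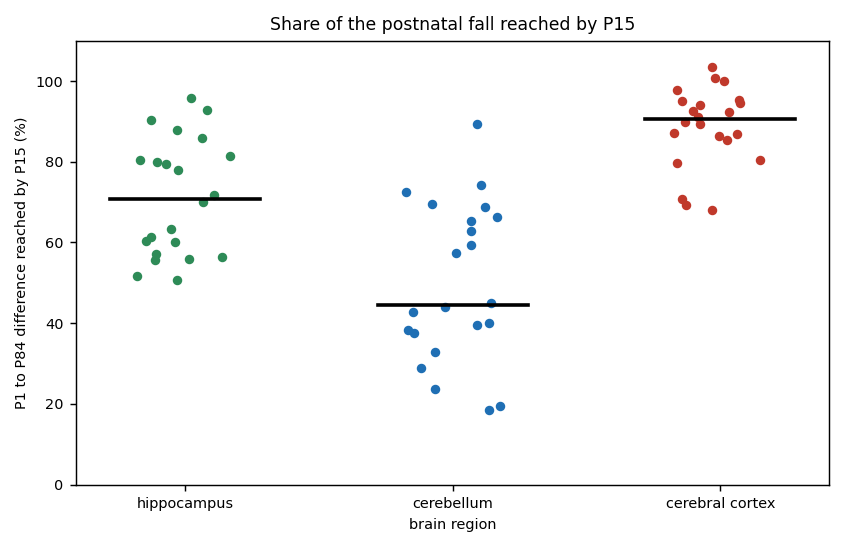
Each point is 1 of the 22 probe sets, the x axis gives the region and the y axis the share (%) of the P1 to P84 difference reached by P15. Black bars are medians. The medians are 70.8% in the hippocampus, 44.6% in the cerebellum and 90.5% in the cerebral cortex.

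The difference between regions in the step from P1 to P15 was tested in the same fit. In the cerebellum against the cerebral cortex, 20 of 29 probe sets had a higher (less negative) step (8.12% of all probe sets), covering 7 genes. Largest among the leading probe sets were Sox11 at 3.19 ± 0.59 (adjusted p = 2.34e-05), Insm1 at 2.81 ± 0.30 (adjusted p = 6.62e-11), Neurod1 at 2.07 ± 0.19 (adjusted p = 4.99e-13) and Dcx at 1.90 ± 0.34 (adjusted p = 1.35e-05). Eomes and Tubb3 were not called (-0.67 ± 0.40 and 0.31 ± 0.23, adjusted p = 0.225 and 0.335). The hippocampus had a higher step than the cerebral cortex at 4 probe sets (0.958%), all of Sox11, and a lower step than the cerebellum at 11 probe sets (5.57%). For P84 minus P1, the hippocampus against the cerebral cortex gave 1 higher and 4 lower (1.28% and 1.66%), the cerebellum against the cerebral cortex 5 higher and 7 lower (8.45% and 7.22%), and the hippocampus against the cerebellum 6 higher and 7 lower (6.22% and 6.92%). Dcx had a cerebellar difference from the cerebral cortex of -4.15 ± 0.33 (adjusted p = 4.98e-15), and Insm1 one of -2.79 ± 0.29 (adjusted p = 2.84e-11). With the exchanged arrays as labelled, the P15 differences from the cerebral cortex were 3.13 for Sox11, 2.51 for Insm1, 1.79 for Dcx and 1.55 for Neurod1, of which Neurod1 missed the t threshold (adjusted p = 0.00923).

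The regions were also compared at each age. In the hippocampus against the cerebral cortex, 5 were higher at P1 (1.62%), 11 higher at P15 (1.85%), 4 higher and 1 lower at P30 (2.59% and 2.61%) and 2 higher and 2 lower at P84 (2.59% and 2.82%). Neurod1 was higher in the hippocampus at all 4 ages, by 2.03, 2.04, 1.37 and 1.23 from P1 to P84 (adjusted p of at most 1.17e-10). Eomes and Igfbpl1 were higher in the hippocampus at P1 by 1.34 and 1.13 (adjusted p = 6.47e-04 and 9.04e-04), and both missed the t threshold without Ts1Cje replicate 1 (1.14 and 1.12) or Ts1Cje replicate 2 (1.16 and 1.08). Dcx was lower in the hippocampus at P84 by 1.66 (log2 difference -1.66, adjusted p = 2.66e-07), while Insm1 was higher by 1.08 (adjusted p = 8.82e-05). With the exchanged arrays as labelled, the P84 calls of Insm1 and Neurod1 were lost at unchanged values (adjusted p = 0.00629 and 0.00943).

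In the cerebellum against the cerebral cortex, 6 probe sets were higher and 10 lower at P1 (6.86% and 7.97% of all). At P15 18 were higher and 1 lower (9.33% and 8.88%), at P30 5 were higher and 12 lower (9.39% and 9.22%), and at P84 6 were higher and 10 lower (9.66% and 8.66%). Dcx in the cerebellum differed from the cerebral cortex by -0.64 at P1, 1.26 at P15, -4.12 at P30 and -4.79 at P84, of which the last 3 were called (adjusted p = 4.51e-05, 4.52e-21 and 9.46e-24). Insm1 went through the same turn, with 1.03, 3.84, -1.82 and -1.75 at the 4 ages, all called (adjusted p = 6.47e-05, 4.87e-21, 1.62e-10 and 4.57e-10). Neurod1 and Eomes were higher in the cerebellum at every age, Neurod1 by 3.38 to 5.44 (adjusted p of at most 6.28e-28) and Eomes by 2.08 to 3.78 (adjusted p of at most 1.52e-08). The 1 probe set lower at P15 was that of Tubb3 (-0.74, adjusted p = 2.74e-04), which missed the t threshold with the exchanged arrays as labelled (-0.63) and on leaving out Ts1Cje replicate 1 (-0.62) or 2 (-0.73) or disomic replicate 1 (-0.70) or 2 (-0.76). Dcx at P15 missed it without disomic replicate 2 (1.22), and Insm1 at P1 with the exchanged arrays as labelled (adjusted p = 0.00332). Between the hippocampus and the cerebellum, 9 of 29 probe sets were higher in the hippocampus and 4 lower at P1, beside 2679 and 2520 of all 45101. At P15 1 was higher and 8 lower (3428 and 3353 of all). At P30 13 were higher and 6 lower (4165 and 3867), and at P84 10 were higher and 6 lower (3863 and 4207).

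Markers of other cell types moved over the same ages. Of 5 listed genes of dividing cells, 4 were measured (Mki67, a proliferation marker, among them), and their mean over the cerebellar arrays ranged from 7.33 to 9.13 at P1, 2.94 to 3.89 at P15 and 2.12 to 2.43 at P30. All 4 were lower at P15 than at P1 in each of the 3 regions. Of all probe sets, 10.2% were called lower at this step in the hippocampus, 11.4% in the cerebellum and 13.7% in the cerebral cortex. The 4 genes of granule cell precursors (Atoh1, Barhl1, Mfap4 and Nhlh1) averaged 4.16 to 5.91 at P1, 3.22 to 3.64 at P15 and 2.15 to 2.39 at P30 in the cerebellum. At each of these steps 3 of 4 were lower (11.4% and 2.7% of all probe sets were called lower). Of all genes with 1 probe set each, 3.76% were called lower at the second step. In the cerebral cortex this list stayed between 1.98 and 2.43 at all ages. Mature neuron genes (4 of 5 measured) averaged 6.53 to 7.12 in the cerebellum at P1, 9.02 to 9.37 at P15 and 9.43 to 9.68 at P30. Glial genes rose over the first step. All 3 oligodendrocyte genes measured of 4 listed (Mbp, of myelin, is 1 of the list) and all 4 astrocyte genes were higher at P15 than at P1 in each region (13.7% of all genes with 1 probe set each were called higher in the hippocampus, 13.4% in the cerebellum and 16.2% in the cerebral cortex). The oligodendrocyte genes averaged 10.48 to 11.38 at P15 and 2.92 to 6.14 at P1 in the hippocampus, 11.94 to 12.10 and 3.51 to 4.32 in the cerebellum, and 10.58 to 11.09 and 3.12 to 3.81 in the cerebral cortex. The astrocyte genes averaged 9.59 to 10.34 at P15 and 6.91 to 7.94 at P1 in the hippocampus, 10.43 to 10.85 and 5.94 to 7.44 in the cerebellum, and 9.42 to 9.87 and 5.40 to 6.70 in the cerebral cortex. Of 4 microglial genes, 3 were higher at P15 in the hippocampus, 0 in the cerebellum and 4 in the cerebral cortex, and their mean at P15 was 6.30 to 6.66, 4.30 to 4.81 and 6.46 to 6.82 in these regions, against 4.40 to 5.39, 4.35 to 5.16 and 3.88 to 5.22 at P1. The part of these cell types in the members' course was not tested.

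The genotype comparisons gave no called member. In the 12 comparisons of Ts1Cje with disomic mice, 0 of 29 probe sets were called in any. From P1 to P84, the share of all probe sets called in either direction was 0.0244%, 0.0111%, 0.0333% and 0.0887% in the hippocampus. Cerebellar shares were 0.661%, 0.00887%, 0.0687% and 0.153%, and cortical shares were 0.0333%, 0.0111%, 0.0288% and 0.0732%. Averaged over the 4 ages, 0 were called in the hippocampus (0.202%), the cerebellum (0.286%) and the cerebral cortex (0.217%), and 2, 0 and 1 of 29 had an unadjusted p under 0.05. Over all 348 tests of a member with limma, 15 (4.31%) had an unadjusted p under 0.05, beside 5.17% over all probe sets. The median difference of the 29 probe sets lay between -0.24 (P15 hippocampus) and 0.10 (P15 cerebellum). No member was called in limma for a change of the genotype effect with age, where 2 in the hippocampus, 2 in the cerebellum and 1 in the cerebral cortex had an unadjusted p under 0.05, or for a difference of the effect between regions, where 0 did. On simulated data for the P84 hippocampus, the same criteria found 23.9% of 67 probe sets given a change of 0.58 on the log2 scale. They found 76.1% of 67 at a change of 1 and 97% of 66 at a change of 2. The changed probe sets were drawn from all 45101, so these shares are not those of the members. Differences under a doubling could be missed, and larger ones too. Uncalled in the P15 hippocampus, with 2 disomic arrays, were -1.04 for Sox11, -1.07 for Insm1 and -1.39 for Dcx 1448974_at. In the P15 cerebellum 1.11 for Eomes 1435172_at was not called either.

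**Figure D4:**
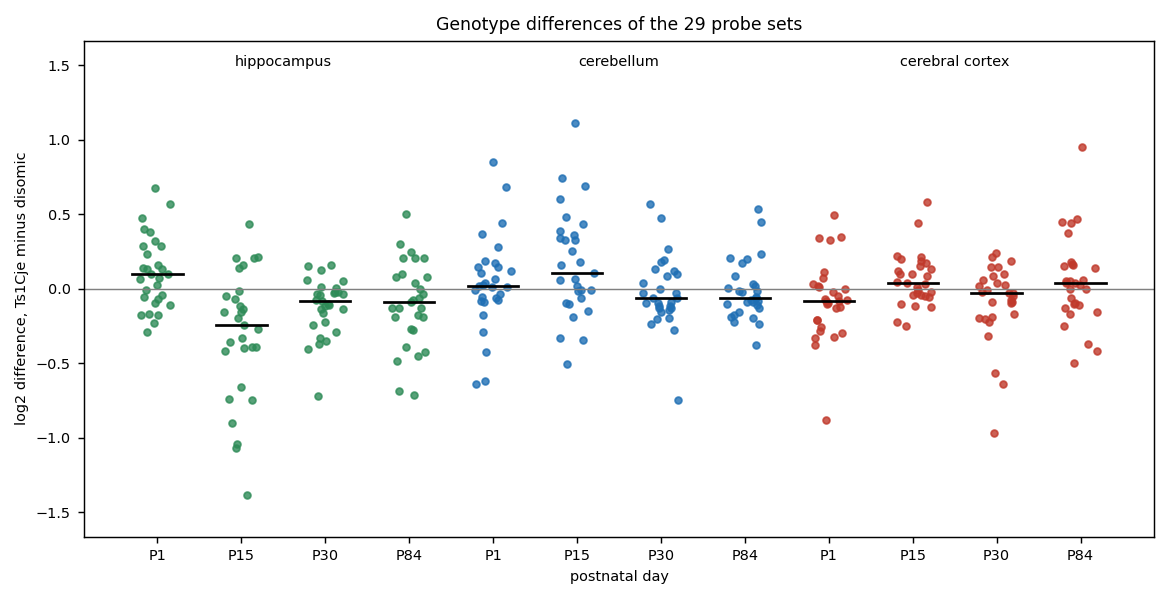
Each point is 1 of the 29 probe sets, the x axis gives the age within each region and the y axis the log2 difference of Ts1Cje minus disomic mice; black bars are medians. The medians stay between -0.24 and 0.10. Single probe sets reach 1.11 (Eomes 1435172_at, P15 cerebellum) and -1.39 (Dcx 1448974_at, P15 hippocampus). In the same comparisons the leading probe sets of Eomes and Dcx had 0.10 and -0.36.

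The 5 differences with an unadjusted p under 0.01 are given with every array, since 1 array changes the call of some. Dcx (1418139_at) in the P84 cerebral cortex held 5.65, 6.26 and 6.96 in Ts1Cje mice and 5.34, 5.84 and 4.85 in disomic mice. The groups overlapped, and the difference was 0.95 ± 0.26 (adjusted p = 0.213), which became 1.27 and was called without Ts1Cje replicate 1 (adjusted p = 0.0384). The leading Dcx probe set held 8.17, 8.61 and 8.36 in Ts1Cje mice and 8.62, 7.56 and 7.63 in disomic mice. Ttr, a choroid plexus gene, read 2.62, 9.28 and 7.21 on the same Ts1Cje arrays and 4.56, 4.03 and 4.69 on the disomic ones, while the other choroid plexus markers Folr1 and Kl stayed between 2.12 and 2.97 on all 6. Dlx1, Dlx2, Dlx5 and Sp8 were listed as genes of the ventricular zone and rostral migratory stream. As with Dcx 1418139_at, Dlx1 was highest on Ts1Cje replicates 2 and 3 (5.17 and 5.23) and lowest on disomic replicate 3 (4.21). Dlx2 ran alike (3.71 and 3.75, against 3.05). Dlx5 (2.88 and 3.10, against 2.93) and Sp8 (2.43 and 2.19, against 2.55) did not. The disomic replicate 3 array (4.85 for Dcx) is 1 of the 3 dim arrays, and without those the difference was 0.70 (adjusted p = 1.00). The part of these in the Dcx difference was not tested.

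Insm1 in the P15 hippocampus held 6.23, 5.94 and 6.46 in Ts1Cje mice and 7.00 and 7.56 in the 2 disomic mice used. These groups did not overlap, and the difference was -1.07 ± 0.32 (adjusted p = 1). The exchanged disomic array labelled hippocampus read 9.56, and with both exchanged arrays kept as labelled the difference became -1.83 and was called (adjusted p = 0.0453). Insm1 probe set 1421399_at in the P1 cerebellum held 6.03, 6.61 and 6.20 in Ts1Cje mice and 7.78, 7.35 and 5.63 in disomic mice. The last value came from the dim disomic replicate 3 array. With it the difference was -0.64 ± 0.29 (adjusted p = 0.218), and without the 3 dim arrays it was -1.28 and called (adjusted p = 0.0114). It was also called without disomic replicate 3 (-1.28, adjusted p = 0.0260) and with quantile normalization (-0.96, adjusted p = 0.030). The leading Insm1 probe set showed no such split in the P1 cerebellum, with 10.88, 10.84 and 10.56 in Ts1Cje mice and 10.79, 10.62 and 10.79 in disomic mice. Probe set 1421399_at was singled out after its values were seen.

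Neurod1 in the P1 hippocampus held 9.91, 10.08 and 10.10 in Ts1Cje mice and 9.68, 9.54 and 9.16 in disomic mice, a difference of 0.57 ± 0.18 with no overlap (adjusted p = 1). The 4 cerebellar markers averaged 3.29 to 6.06 on these Ts1Cje arrays and 3.35 to 3.63 on the disomic ones, and their part in the difference was not tested. Eomes (1435172_at) in the P15 cerebellum held 6.47, 5.80 and 6.32 in Ts1Cje mice and 4.86 and 5.31 in disomic mice (1.11 ± 0.33, adjusted p = 1). Its other probe set held 6.49, 5.73 and 6.33 in Ts1Cje mice and 6.28 and 5.88 in disomic mice, which overlapped. Igfbpl1 (1423377_at) in the P1 cerebral cortex held 6.81, 6.19 and 6.63 in Ts1Cje mice and 7.54, 7.00 and 7.73 in disomic mice (-0.88 ± 0.31, adjusted p = 0.986), and its other probe set held 7.32, 6.86 and 7.48 in Ts1Cje mice and 7.78, 6.70 and 5.68 in disomic mice.

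Beyond the 9 genes, a list of 50 other genes of young neurons was examined, of which 48 were measured with 1 probe set each. They were chosen as genes of young neurons, with earlier results of these data known. Neither their fall after birth nor its timing is therefore independent of the members' course. In P84 against P1, 40 were lower and 1 higher in the hippocampus (18.1% and 14.8% of all 18194 genes, with 1 probe set each, were called in these directions), 33 lower and 5 higher in the cerebellum (19.4% and 16.1%), and 35 lower and 2 higher in the cerebral cortex (19.3% and 16.6%). Their median differences were -1.70, -1.42 and -1.74, beside -0.00580, -0.0473 and 0.0330 over all genes. St8sia2, which adds polysialic acid to the adhesion molecule Ncam1, had the largest t in all 3 regions, with log2 differences of -7.38, -6.38 and -7.77 (adjusted p of at most 4.46e-41). Dpysl3, a cytoskeletal regulator of growth cones, fell by 5.67, 7.52 and 6.73 on the log2 scale, and Draxin, a secreted axon guidance protein, by 5.52, 5.11 and 4.45 (adjusted p of at most 6.37e-33 for Draxin and 2.74e-32 for Dpysl3).

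Some of these genes also fell late in the cerebellum. In the step from P15 to P30, 16 of 48 were lower in the hippocampus (1.53% of all genes), 21 in the cerebellum (3.76%) and 13 in the cerebral cortex (1.85%). In the cerebellum the largest t values were those of Dpysl3 (log2 difference -4.02, adjusted p = 2.82e-23), Draxin (log2 difference -2.37, adjusted p = 4.85e-19), Marcksl1 (log2 difference -2.18, adjusted p = 1.96e-18), a regulator of actin, and Cd24a (log2 difference -3.83, adjusted p = 3.62e-18), a surface protein of young neurons. For the step from P1 to P15, the cerebellum was higher than the cerebral cortex at 22 of 48 genes and lower at 9 (8.49% and 10.6% of all genes), with a median difference of 0.55 beside -0.0935 over all genes. By genotype, 1 of 48 genes was called in the 12 comparisons. This was Sp8, a zinc finger factor of interneuron precursors and 1 of the genes that Ts1Cje mice carry in a single copy through the chromosome 12 deletion. It was lower in the P1 cerebral cortex of Ts1Cje mice (-0.89 ± 0.16, adjusted p = 0.00377), where its arrays spanned 2.85 to 4.11.

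Likeness among the members was described over 24 group means with Pearson's r. Insm1 was closest to the mean of the other 8 (r = 0.937), followed by Sox11 (0.920), Igfbpl1 (0.915), Sox4 (0.913), Dcx and Tubb3 (0.835 each), Stmn2 (0.721) and Eomes (0.633). Neurod1 stood apart at 0.0779, and among single genes it was closest to Eomes (0.747). Outside the members, the genes most like the mean of all 9 were Igsf3 (0.985), Rps6ka6 (0.981), Cks1b (0.977), Spast (0.972), Draxin (0.972), Rplp0 (0.969), Hdac2 (0.967) and Rrm2 (0.967), of 18185 ranked. The group means share their arrays, regions and ages, so these values only describe how the profiles ran.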

How the data were processed

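RNA of 3 brain regions was hybridised to 72 mouse expression arrays from Affymetrix. The deposited values are on the log2 scale and come from gcRMA, which corrects background by probe sequence, scales arrays to each other and sums the probes of a set; no source used here gives a version of it. Scanner files were not used here, so background could not be tested per probe set, and precision is limited by the number of arrays.

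Groups came from the labels. Genes were named from the platform annotation (34958 probe sets with 1 symbol, 932 with several, 9211 with none), with 34754 symbols matched by identifier to the GRCm38.p6 gene table. A linear model of 24 group means over 70 arrays (46 residual and 49.71 total degrees of freedom) was fitted with limma 3.58.1 (R 4.3.3) and moderated by eBayes, after the thresholds of the study's methods, with Benjamini-Hochberg adjustment over 45101 probe sets per comparison. The 12 genotype comparisons, their averages over ages, age steps, region differences and the differences among these came from this fit. The fit was tested on simulated data, where 8 unchanged probe sets were called. Replicates are labelled as biological replicates. Same-numbered samples were not taken as pairs.

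The members and the gene lists were chosen with earlier results of these data known. All 9 members are named with each probe set; of the other young neuron genes, those with the largest moderated t among called genes, up to 8 per comparison; and the 8 genes most like the members by Pearson's r. The alternatives were the exchanged arrays as labelled, without the 3 dim arrays, leaving out the P1 arrays whose Xist value exceeds that of Eif2s3y, quantile normalization, a filter at a mean log2 value of 5, a trended and robust prior, 1 fit per region, the mouse as a random block, the replicate number as a block and leaving out each replicate.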

Additional observations from a re-analysis of the deposited data

Results flagged for a closer look

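The values that follow are tested differences between regions in an age step (log2, the first region minus the second), each past the call thresholds, for the leading probe set of each gene. Beside them stand the percentages of all probe sets called in the same comparisons, given with the region tests. No group held 4 or more arrays of 1 genotype, so single arrays were not screened as outliers.

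For P15 minus P1, the cerebellum minus the cerebral cortex gave 1.90 for Dcx, 3.19 for Sox11, 0.96 for Sox4, 2.07 for Neurod1, 2.81 for Insm1, 0.64 for Stmn2 and 1.59 for Igfbpl1. The hippocampus minus the cerebellum gave -1.54 for Dcx, -2.07 for Neurod1, -2.02 for Insm1, -0.74 for Stmn2 and -1.58 for Igfbpl1. Of the first, Dcx, Sox11, Neurod1 and Insm1 kept their call on leaving out any 1 replicate, whereas Sox4 (0.88 to 1.03), Stmn2 (0.57 to 0.67) and Igfbpl1 (1.45 to 1.58) lost it without Ts1Cje replicate 2 or 3. Stmn2 also lost it with the exchanged arrays as labelled (0.57) and with quantile normalization (0.62), as Neurod1 did with the exchanged arrays (1.55), and Igfbpl1 without the 3 P1 arrays on which Xist exceeded Eif2s3y (1.38). Sox4 also lost it without disomic replicate 1, 2 or 3, Stmn2 without disomic replicate 2 and Igfbpl1 without disomic replicate 1. Of the second, Dcx (-1.60 to -1.47) lost it without Ts1Cje replicate 3 or disomic replicate 1, 2 or 3, and Igfbpl1 (-1.71 to -1.49) without Ts1Cje replicate 1, 2 or 3, and both without those 3 P1 arrays (-1.45 and -1.43). The exchanged arrays as labelled turned the second values into -1.30 for Dcx, -0.99 for Neurod1, -1.34 for Insm1 and -0.56 for Stmn2, none of them called.

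For P84 minus P1, the hippocampus minus the cerebral cortex gave -1.70 for Dcx and -0.81 for Neurod1. Neurod1 was not called (-0.77 to -0.67) once replicate 1 or 2 of either genotype was left out, nor with the exchanged arrays as labelled (-0.81) or without those 3 P1 arrays (-0.79). The cerebellum minus the cerebral cortex gave -4.15 for Dcx, -1.61 for Sox4, 1.86 for Neurod1, -1.70 for Eomes, -2.79 for Insm1, 0.99 for Tubb3 and 1.20 for Stmn2. The same left-out replicates cost Eomes its call (-1.68 to -1.31), as did the exchanged arrays as labelled (-1.70). Tubb3 lost it without Ts1Cje replicate 2 or disomic replicate 2 or 3 (0.83 to 1.02) and without the 3 dim arrays (0.78). The hippocampus minus the cerebellum gave 2.45 for Dcx, 1.43 for Sox4, -2.67 for Neurod1, 3.42 for Insm1, -1.09 for Tubb3, -1.11 for Stmn2 and -1.54 for Igfbpl1. Tubb3 lost its call without Ts1Cje replicate 2 or disomic replicate 2 (-0.99 and -1.05), and Igfbpl1 without Ts1Cje replicate 1, 2 or 3 (-1.64 to -1.44), the 3 dim arrays (-1.06) or those 3 P1 arrays (-1.40). At P84 Igfbpl1 (medians of 2.14 in the hippocampus, 2.14 in the cerebellum and 2.15 in the cerebral cortex) and cortical Eomes (median 2.92) lay below the array medians of 3.20 to 3.37. Their falls are not shown to end above background, so these regional differences are no exact measure of how far each region fell.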

How the results depend on the processing

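Among the single differences followed under the alternatives, none changed sign. These were the calls counted next and the 5 genotype differences with an unadjusted p under 0.01 in limma. Calls for a single leading probe set covered 68 age steps, 61 region differences and 28 differences between regions in an age step. Of these, 53, 45 and 14 kept their side of the thresholds under every alternative that tested them. The filter at a mean log2 value of 5 tested only 55, 48 and 24 of them. The separate fits per region tested only the age steps among them. With the exchanged arrays as labelled 24 of these calls were lost, and 26 without Ts1Cje replicate 2, with fewer lost under each of the other alternatives.

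The count of 0 called members over the 12 genotype comparisons became 1 with the exchanged arrays as labelled, 1 without the 3 dim arrays and 1 with quantile normalization, and was 0 to 1 on leaving out replicates. Requiring a mean log2 value of 5, which takes several members out, left 15 (hippocampus), 13 (cerebellum) and 16 (cerebral cortex) lower at P15 against P1, and 17, 13 and 16 at P84 against P1. At P84 against P30 the hippocampal count of 3 was 1 with the exchanged arrays as labelled, 1 without the dim arrays and 1 to 2 on leaving out replicates, and the cerebellar count of 0 was 0 to 1. The difference in the step to P15 between hippocampus and cerebellum, 11 calls, gave 6 with the exchanged arrays as labelled, 7 with the filter and 6 to 10 on leaving out replicates. That in P84 minus P1 between hippocampus and cerebral cortex, 5 calls, gave 3 with the exchanged arrays and 3 to 6 on leaving out replicates.

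Arrays with the same replicate number tended to deviate alike from their group means. Of 34 pairs of Ts1Cje and disomic arrays of the same number, 24 had deviations correlated above 0.1 (median 0.198). So had 50 of 69 pairs of regions of the same genotype, age and number (median 0.238). Between ages it was 45 of 68 pairs (median 0.160). Different ages are different mice, so a shared number is not shown to mark a pair. The main fit leaves this likeness out, and its source was not tested. With the replicate block, 5 members were lower at P84 against P30 in the hippocampus and 1 in the cerebellum, and 0 were called by genotype. The 3 regions of a group came from 3 mice, so arrays of different regions may share a mouse, and the region tests took them as independent. With the number within genotype and age taken as the mouse, as a random block, the consensus correlation was 0.128. Member calls were added over the 4 ages, with 29 probe sets tested at each. With this block they came to 27 for hippocampus against cerebral cortex, 69 for cerebellum against cerebral cortex and 60 for hippocampus against cerebellum. Those without it were 25, 68 and 57. For the step to P15 between the same regions, calls with the block were 6, 23 and 11, beside 4, 20 and 11 without it. For P84 minus P1 they were 6, 12 and 13, beside 5, 12 and 13. With 3 arrays per group and no scanner values, small differences and levels near the floor are the main limits.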
